A study of Mus musculus with 2 samples.

Results

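The cytosolic ribosomal protein genes were followed in single myeloid cells sorted from mouse colorectal polyps. Members were the genes whose symbol begins with Rpl or Rps and a digit, together with Rplp0, Rplp1, Rplp2 and Rpsa. Symbols beginning with Rps6k, which encode kinases, and symbols holding -ps, which mark pseudogene copies, were left out. This gave 86 of 32285 genes. By name, 51 belonged to the large subunit, 33 to the small subunit and 2, Rpl7l1 and Rps19bp1, were not ribosomal proteins. In the cells kept, 85 members had at least 1 unique molecular identifier (UMI, a tag that lets each captured RNA molecule be counted once). Rpl10l had 0 of 19842381 UMIs, which allows up to 0.00151 per 10000.

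Both groups were C57BL6/J mice given azoxymethane (AOM), a carcinogen, and then dextran sulfate sodium (DSS) at 1% in 3 cycles, which together induce polyps in the inflamed colon. They were 26 weeks old, 16 weeks after AOM. The WT group was wild type, and the Clec7a-/- group carried the knockout of the dectin-1 receptor gene, which is itself not analysed here. CD11b+ and CD11c+ cells of several mice were pooled into 1 library per genotype. Differences among the pooled mice and between the 2 preparations therefore cannot be told apart from the genotype, and no test between groups was possible. Intervals are exact at 95% and cover counting error only.

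A ribosome is built from a small and a large subunit, each an rRNA scaffold covered by many proteins that are needed in equal amounts. Their mRNAs begin with a run of pyrimidines, the 5′ terminal oligopyrimidine (TOP) tract, through which mTOR and the RNA-binding protein Larp1 control their translation together. Mature neutrophils are short-lived cells that leave the bone marrow with little RNA and few ribosomes, whereas macrophages and dendritic cells keep making protein in the tissue.

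The start of the transcript is the feature that the family is known to share, and it was read in RefSeq promoters of GRCm38.p6 for 66 members found in that table. A run of at least 8 C or T was sought on the sense strand, which reads as the RNA does, and within 5 bases of the listed start. It was present in 21 members, or 31.8%, beside 9.63% of all 27025 promoters and 10.1% of those of mitochondrial ribosomal protein genes. Whether the listed starts are those used in these cells was not tested. The lack of a run here thus does not show that a member lacks the TOP tract. Within 50 bases to either side of the start and on either strand, CTTTCC was found in 31.8% of members, 8.74% of all promoters and 7.25% of those of mitochondrial ribosomal protein genes. GGAAG was found in 66.7%, 37.5% and 60.9%, so that members lay close to the mitochondrial genes, and TATAAA in 7.58%, 5.16% and 0%. CTTTCC can lie inside a pyrimidine run, and GGAAG reads CTTCC on the other strand. The members below are those on whose values the results turn, and each is shown from 15 bases before the start through 15 from it, with the pyrimidine run in capitals.
Rps9 (chr7:3704026-3704055, plus strand): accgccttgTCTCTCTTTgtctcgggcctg
Rps27 (chr3:90213634-90213663, minus strand): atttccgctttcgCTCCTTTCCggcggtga
Rpl35 (chr2:39005117-39005146, minus strand): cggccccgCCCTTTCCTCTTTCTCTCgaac
Rps4x (chrX:102189377-102189406, minus strand): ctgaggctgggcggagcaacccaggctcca
Rpl13 (chr8:123102335-123102364, plus strand): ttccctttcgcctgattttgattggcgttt
Rpl14 (chr9:120571502-120571531, plus strand): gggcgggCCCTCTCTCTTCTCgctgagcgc
Rpl18 (chr7:45718056-45718085, plus strand): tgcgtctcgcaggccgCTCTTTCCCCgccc

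After filtering, 4695 cells remained, 2696 of them in the WT library. The WT library held 12283285 UMIs and the Clec7a-/- library 7559096, with medians of 3412 and 2671 UMIs per cell. The libraries shared 17 barcodes, 6 of them among the cells kept. Cells were clustered without the members, so that their level could not decide the class. The clusters called neutrophil-like held 9 of 10 neutrophil markers each, the macrophage-like clusters all 10, the monocyte-like clusters 7 of 7 and 4 of 5 of their lists, and the dendritic-cell (DC)-like clusters between 4 and 7 of 10. Cluster 3 was the less certain of the 2 neutrophil-like clusters: no neutrophil marker was among its top 10 genes by fold, and its medians of 1154 UMIs in WT and 915 in Clec7a-/- cells lay close to the limit below which a cluster was left unnamed. Clusters 5 and 11 stayed unnamed. After the gate on CD11b and CD11c and the filter, 21 mast-cell-like, 29 epithelial-like, 188 T-cell-like and 32 B- or plasma-cell-like cells remained. Clustering all barcodes without the filter gave 38, 411, 255 and 98 barcodes of these classes.

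Members made up 1487370 of the 19842381 UMIs, or 7.50%, and this share differed widely between classes. It was 1.73% in neutrophil-like, 6.84% in monocyte-like, 8.11% in macrophage-like and 9.85% in DC-like cells. Over summed UMIs the few cells of other lineages were higher. They were at 10.5% in T-cell-like cells, 13.5% in cells of the B or plasma type, 14.2% in mast-cell-like cells and 16.5% in epithelial-like cells. By the cell median, however, T-cell-like cells were lower than DC-like cells, at 8.55% beside 9.66%. Epithelial-like cells had a median of 13.5%, below the 14.6% of B- or plasma-cell-like and the 14.2% of mast-cell-like cells. Over summed UMIs of both libraries, the epithelial-like share was 9.54 times that of neutrophil-like cells. It rested on 17 WT and 12 Clec7a-/- cells, and in WT mast-cell-like cells were higher, at 14.0% beside 13.6%. In the order of levels, neutrophil-like to monocyte-like was the largest step, at 3.95-fold. Other neighbours lay 1.05- to 1.29-fold apart. The order of the 4 myeloid classes was the same in both libraries. The spread over cells was wide: the middle 50% of WT monocyte-like cells ran from 4.58% to 7.66%, and of WT neutrophil-like cells from 1.10% to 2.08%, so these 2 ranges did not overlap.

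**Figure D1:**
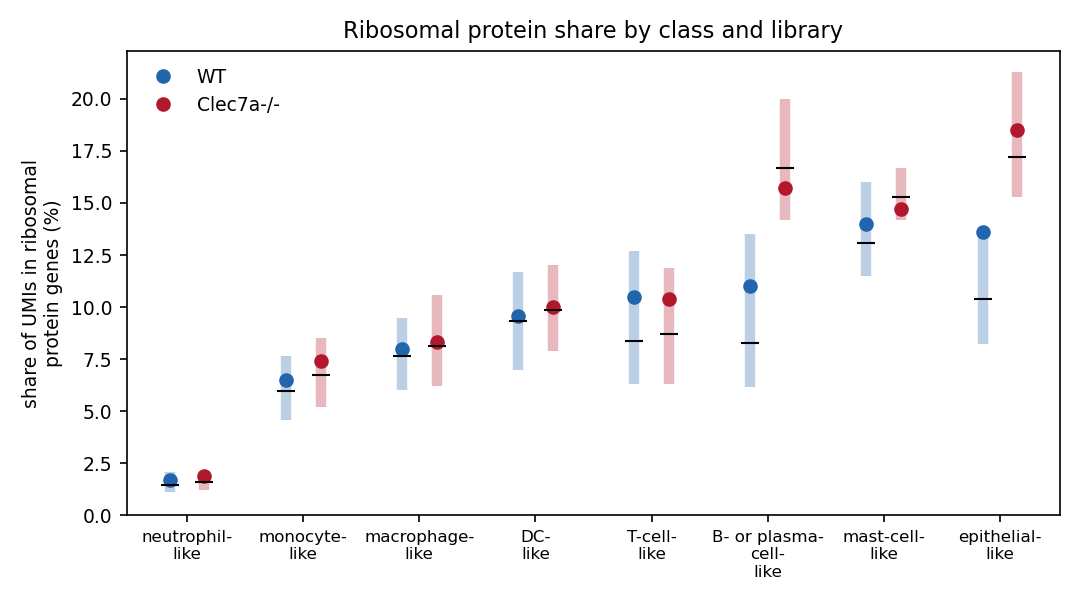
Share of UMIs from the 86 ribosomal protein genes (%, y axis) by class (x axis) and library. Points give the share over summed UMIs, bars the middle 50% of cells and ticks the cell median, WT in blue and Clec7a-/- in red. Neutrophil-like cells lay at 1.68% and 1.91%, below the 6.49% and 7.41% of monocyte-like cells, the next class in order.

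Neutrophil-like cells carried a low share of ribosomal protein RNA in both libraries. In WT the share was 1.68% beside 7.92% in the other 3 myeloid classes together, and in Clec7a-/- 1.91% beside 8.88%, 4.70- and 4.66-fold lower. Over both libraries the log2 ratio was −2.27 (−2.28 to −2.25). A share falls when ribosomal protein UMIs fall and also when other UMIs rise, but here both counts per cell were low: neutrophil-like cells had a mean of 35.8 member UMIs and 2028 other UMIs, monocyte-like cells 232 and 3158, DC-like cells 497 and 4553, and macrophage-like cells 614 and 6957. At an equal depth of 1000 UMIs per cell, a median of 12 members was detected in WT and 13 in Clec7a-/- neutrophil-like cells, against 38.0 and 40.0 in monocyte-like, 44.0 and 45.0 in macrophage-like and 48.0 and 49.0 in DC-like cells. This left out 74 WT and 186 Clec7a-/- neutrophil-like cells below that depth. The 2 neutrophil-like clusters did not carry the same share. Cluster 1 was at 1.47% in WT and 1.62% in Clec7a-/-, and cluster 3 at 3.04% and 2.04%. With cluster 1 alone the log2 ratio to the other 3 classes was −2.49, with cluster 3 alone −1.76, and when each cell was classed by its own marker UMIs, −0.99. That rule gave 1607 neutrophil-like cells, of which 1030 were so named by cluster, 325 came from the unnamed cluster 5 and 126 from monocyte-like clusters.

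Cluster 3 was split by clustering more finely. The cells that kept the neutrophil-like name, 57 WT and 278 Clec7a-/-, were at 2.05% and 1.83%, and the remainder, unnamed, 126 WT and 43 Clec7a-/- cells, at 3.79% and 3.69%. Within each of these the libraries lay closer together than in cluster 3 as a whole, at 3.04% and 2.04%. In the neutrophil-like part their intervals, 1.97 to 2.14 and 1.78 to 1.88, still did not overlap. The libraries also differed in how many cells they gave to each part. Summed neutrophil markers in cluster 3 were 158 per 10000 UMIs in WT and 250.4 in Clec7a-/- cells, beside 435 and 310.3 in the neutrophil-like class as a whole. The part of these markers in the cluster's ribosomal protein share was not tested.

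Depth of the barcode moved with the share over all myeloid cells, and less so within monocyte-like, macrophage-like and DC-like cells. In neutrophil-like cells the libraries differed. Over the class the share was lower in deeper cells of WT, though not within its cluster 1. In Clec7a-/- it rose from 1.74% under 1000 UMIs to 1.89% below 2000 and 2.23% below 4000, with only 1 cell deeper. Cells of 4000 or more UMIs had a share of 8.26% and cells under 2000 UMIs 5.30%, a log2 ratio of 0.64 (0.44 in WT, 0.85 in Clec7a-/-). Without cluster 3, whose cells are shallow, the ratio fell to 0.24. Within monocyte-like cells it was 0.11 (7.11% and 6.60%), within macrophage-like cells 0.044 (8.08% and 7.84%) and within DC-like cells −0.023 (9.79% and 9.95%). The neutrophil-like class was at −0.36 (1.72% and 2.20%) over both libraries and at −0.80 (1.71% and 2.99%) in WT, larger in size than the ratio over all myeloid cells. Cluster 1 alone gave 0.16 over both libraries (1.72% and 1.54%) and 0.33 in WT (1.71% and 1.36%), opposite in sign to the class. Cluster 3 over both libraries was at 2.19% under 1000 UMIs, 2.49% below 2000 and 2.97% below 4000. Within it, WT went from 3.31% to 2.72% over these bins and Clec7a-/- from 1.74% to 3.81%. Cluster 1 gave 72 of the 533 neutrophil-like cells under 2000 UMIs but 74 of the 75 at 4000 or more. In WT it gave 15 of 165 and 73 of 74. The part of this mix of clusters in the negative ratio was not tested. Neutrophil-like cells remained below the other 3 classes at each depth compared. Under 1000 UMIs they were at 3.23% in WT and 1.74% in Clec7a-/-, against 6.83% and 7.21%. From 2000 to under 4000 UMIs they were at 1.48% and 2.23%, against 7.13% and 8.68%.

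**Figure D2:**
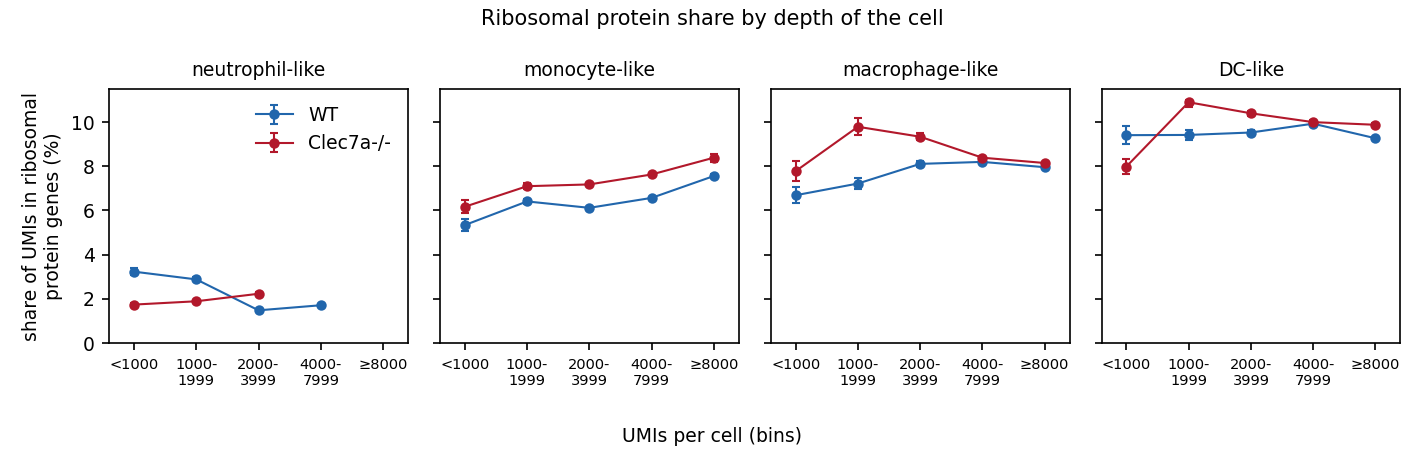
Share of UMIs from ribosomal protein genes (%, y axis) by UMIs per cell (x axis, 5 bins) in the 4 myeloid classes, with 95% counting intervals, WT in blue and Clec7a-/- in red. Monocyte-like cells ran from 5.34% under 1000 UMIs to 7.56% at 8000 or more in WT and from 6.17% to 8.39% in Clec7a-/-, and DC-like cells lay between 7.99% and 10.9% with no steady slope.

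The share also moved with that of mitochondrial RNA, which the filter capped at 5%. Over all barcodes of the WT library it was 1.91% at a mitochondrial share of 1% or less, 6.79% between 2% and 3%, and 9.55% between 10% and 20%, then 5.13% above 20%. The Clec7a-/- library ran 3.23%, 7.90%, 9.11% and 4.73% over the same bins. Counted over nuclear UMIs only, the WT share was 11.1% between 10% and 20% and 9.96% above, and the Clec7a-/- share 10.5% and 10.3%, smaller drops than over all UMIs. Part of this trend followed the classes, whose mitochondrial shares were 1.40% in neutrophil-like, 2.86% in monocyte-like, 3.75% in macrophage-like and 3.67% in DC-like cells. It was present within monocyte-like cells as well, from 5.26% to 7.44% in WT and from 6.37% to 8.54% in Clec7a-/- between the lowest and highest bin. DC-like cells of the Clec7a-/- library varied least, from 9.80% to 10.1%.

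**Figure D3:**
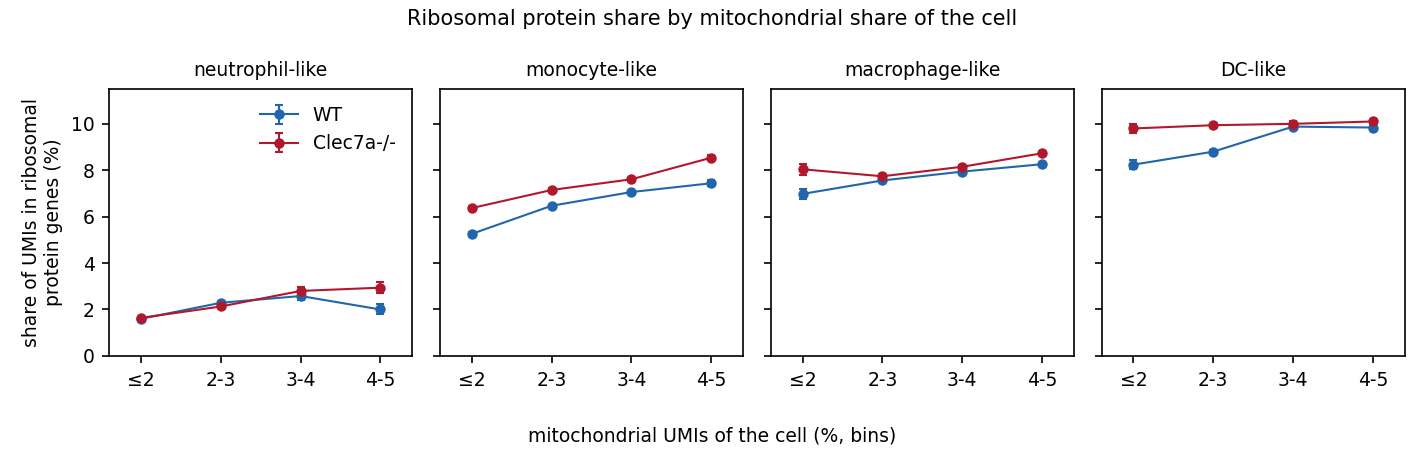
Share of UMIs from ribosomal protein genes (%, y axis) by mitochondrial share of the cell (%, x axis, 4 bins) in the 4 myeloid classes, WT in blue and Clec7a-/- in red. The WT macrophage-like line ran from 6.98% to 8.26%, and the neutrophil-like lines of both libraries stayed under 3%.

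Between libraries, the share was 6.82% (6.80 to 6.83) in WT and 8.60% (8.58 to 8.62) in the Clec7a-/- library (log2 ratio 0.33), but most of the gap moved with the mix of cells. DC-like cells gave 15.1% of WT and 37.5% of Clec7a-/- UMIs, neutrophil-like cells 14.2% and 6.36%, and macrophage-like cells 34.7% and 26.6%. Of the difference of 1.78 percentage points, 0.660 remained when the Clec7a-/- clusters were weighted as in WT, and 0.609 when the WT clusters were weighted as in Clec7a-/-. Within classes the log2 ratios of Clec7a-/- to WT were 0.18 (0.14 to 0.21) in neutrophil-like, 0.19 (0.18 to 0.20) in monocyte-like, 0.058 (0.050 to 0.067) in macrophage-like and 0.072 (0.063 to 0.080) in DC-like cells. T-cell-like cells were at 10.5% and 10.4%. The neutrophil-like value was not steady: it came to 0.14 in cluster 1 and −0.58 in cluster 3, and to −0.037 when cells, not UMIs, were averaged. Monocyte-like cells were higher in the Clec7a-/- library at each depth with a value, by 0.15 to 0.23 on the log2 scale. The mitochondrial share, which moved with the outcome, was 2.99% in the WT and 3.45% in the Clec7a-/- library, and its part in the difference was not tested.

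Single members were compared as levels, in UMIs per 10000 UMIs of a class. A 3′ kit counts each molecule once whatever its length, so these levels need no scaling by length. The RNA was spread over many members: 24 of them made up 50% of the ribosomal protein UMIs, the top 10 24.7%, and 57 had over 10000 UMIs. The 5 most abundant were Rps29, Rps16, Rps27a and Rps24 of the small subunit, Rps27a being made as a fusion with ubiquitin, and Rpl23 of the large subunit. Rps29 was at 26.3 in WT and 34.7 in Clec7a-/- cells over all, at 7.73 and 8.18 in neutrophil-like, 26.5 and 31.8 in monocyte-like, 31.4 and 36.2 in macrophage-like and 33.4 and 39.0 in DC-like cells. Rps24 was at 3.25 and 4.68, 15.3 and 17.6, 17.0 and 17.9, and 22.1 and 23.5 in the same classes. Both kept the order of the summed share in each library. Rpl23 was at 6.27 and 5.97, 19.9 and 22.2, 24.5 and 25.1, and 24.6 and 25, nearly level between macrophage-like and DC-like cells. Rps16 was at 4.52 and 4.66 in neutrophil-like against 22.4 and 24.5 in DC-like cells, and Rps27a at 5.59 and 4.83 against 23.3 and 23.1.

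Nearly all members were low in neutrophil-like cells. Of 84 members with at least 100 UMIs, 82 were more than 2-fold lower than in the other 3 myeloid classes, beside 61.4% of all 8055 genes, and 1, Rpl3l, was more than 2-fold higher, beside 12.2%. In WT 81 of 83 were lower (all genes 59.2%) and 0 higher (12.2%), and in Clec7a-/- 81 of 83 lower (60.3%) and 0 higher (12.5%). The median member was −2.52 on the log2 scale and the median gene −1.54. Scaling by the trimmed mean of M values (TMM) moved the log2 ratios by 0.90, after which 66 members were lower and 2 higher, beside 3262 and 1691 of all genes, with medians of −1.61 and −0.64. The member that was past 2-fold in neither direction was Rps9, a small-subunit protein. Its level was 8.08 in WT and 13.7 in Clec7a-/- neutrophil-like cells, beside 8.22 and 8.12 in monocyte-like, 8.35 and 7.78 in macrophage-like and 9.66 and 8.80 in DC-like cells. WT neutrophil-like cells thus lay just below the other WT classes, and Clec7a-/- neutrophil-like cells above theirs, in cluster 1 (12.8) and in cluster 3 (14.1), whereas WT cluster 3 was at 5.52. The start of Rps9 holds a pyrimidine run, as does that of Rpl35, at 0.446 in WT and 0.666 in Clec7a-/- neutrophil-like cells against 6.37 and 6.58 in DC-like cells.

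The makeup of the pool, the share of each member in all ribosomal protein UMIs of a class, was set beside these levels for the 69 members with at least 100 UMIs in each of the 4 classes. Its range over the classes had a median of 0.56 on the log2 scale, with 31 members under 0.5 and 13 at 1 or more. Rps9 had the widest range, at 5.36% of the pool in neutrophil-like, 1.20% in monocyte-like, 1.01% in macrophage-like and 0.928% in DC-like cells. Rps27, a zinc-finger protein of the small subunit, was likewise highest in neutrophil-like cells, at 4.13% beside 2.16%, 1.41% and 1.84%. Rps4x, the X-linked small-subunit protein, was lowest there, at 0.593% beside 1.76%, 1.89% and 1.83%. Its level was 1.01 in WT and 1.10 in Clec7a-/- neutrophil-like cells against 18.5 and 17.6 in DC-like cells. Rpl35 and Rpl10a, both of the large subunit, had 0.285% and 0.269% of the neutrophil-like pool and at least 0.660% and 0.518% of the others. Rps27, Rps4x, Rpl35 and Rpl10a kept their direction in each library. At the other end, the pool shares of Rps3, which lines the mRNA entry channel, and of Rpl19 and Rpl18 ranged over only 0.11, 0.13 and 0.14 on the log2 scale: Rps3 was at 1.07%, 1.04%, 1.04% and 0.996%. The stalk protein gene Rplp1, named after its values were seen, had 1.77% of the neutrophil-like pool and 0.668% to 0.939% of the others.

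**Figure D4:**
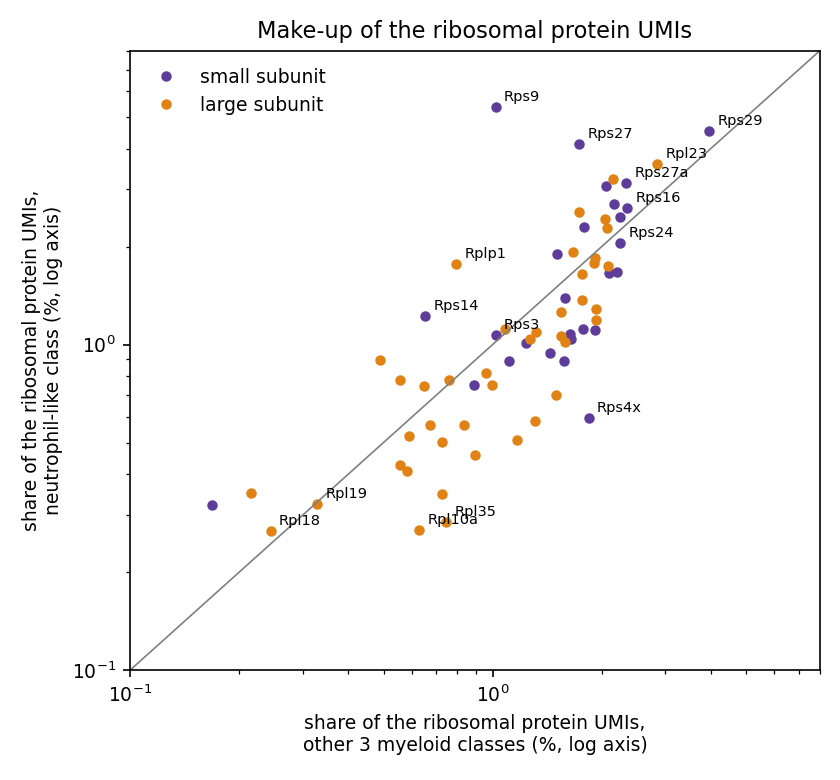
Share of ribosomal protein UMIs taken by each member in neutrophil-like cells (y axis, %, log scale) and in the other 3 myeloid classes (x axis, %, log scale), small-subunit members in purple and large-subunit members in orange, with the line of equality. Rps9 stands above the line at 5.36% of the neutrophil-like pool, and Rps4x below it at 0.593%.

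By subunit, the ratio of small- to large-subunit UMIs was 1.06 in WT and 1.13 in Clec7a-/- neutrophil-like cells and 0.887 and 0.920 in the other 3 classes. Over both libraries monocyte-like cells were at 0.915, macrophage-like cells at 0.872 and DC-like cells at 0.927. WT cluster 3, at 0.909, did not share the high neutrophil-like ratio, while Clec7a-/- cluster 3 did, at 1.10. The ratio did not come from all small-subunit members alike. Of these, 13 of 27 took a larger part of the pool in neutrophil-like cells than in the other classes, as did 14 of 42 large-subunit members. Rps9 and Rps27 alone held 2070 and 1594 of the 20005 small-subunit UMIs of neutrophil-like cells, beside 18547 of the large subunit. The ratio without them was not computed, so a shift of the whole subunit is not shown.

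Between libraries, differences in level were counted past 0.32 on the log2 scale, in either direction. Over all cells 39 of 84 members were higher in Clec7a-/-, beside 28.1% of all 8470 genes, and 0 were lower, beside 13%. The median was 0.31 on the log2 scale for members and 0.13 for all genes. With TMM scaling, a shift of −0.17, only 5 members were higher and 3 lower, beside 1274 and 1888 of all genes. In neutrophil-like cells 25 of 69 were higher and 2 lower (all genes 23.2% and 22.5%), the latter being Rps27 and Rpl17. With TMM these became 12 and 7 (all genes 15.1% and 33.5%). The neutrophil-like class held 493 cells of cluster 1 and 183 of cluster 3 in WT, but 83 and 321 in Clec7a-/-. The part of this mix in the counts was not tested, so a rise within cells is not shown. In monocyte-like cells 10 of 82 were higher and 3 lower (13.4% and 11.9%), and with TMM 4 and 3 (8.91% and 16.1%). Macrophage-like cells had 1 of 83 higher and 3 lower (9.34% and 11.8%), and DC-like cells 1 of 82 higher and 5 lower (13.8% and 11.6%). Within monocyte-like, macrophage-like and DC-like cells the shares of members past this limit were thus near or below those of all genes. The genes were not matched in UMIs, of which the median member had 16623 over all cells. With a minimum of 20 UMIs, the part of all genes that was higher rose to 21.7%, 16.6% and 21.6% in these classes. Members higher were then 10, 1 and 2. The low shares of members thus cannot be told apart from their many UMIs. Smaller shifts are not seen in such counts. In monocyte-like cells 71 of 82 members had positive log2 ratios, with a median of 0.19 beside 0.024 for all genes (0.12 and −0.041 with TMM). Macrophage-like cells had 53 of 83 positive (0.041 beside −0.012) and DC-like cells 53 of 82 (0.046 beside 0.020). The makeup of the pool was also close between libraries, with 72 of 84 members within 0.2 on the log2 scale.

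Rpl14 and Rpl18, large-subunit proteins, ran against most other members. Both were named as among the 3 lowest in pool share between these same libraries, and Rpl13 as among the 3 highest. The clusters counted below split the same UMIs and are neither replicates nor separate support. Rpl14 was at 0.894 per 10000 UMIs in WT and 0.607 in Clec7a-/- monocyte-like cells, at 1.49 and 0.782 in macrophage-like cells, and at 2.15 and 1.38 in DC-like cells. These are log2 ratios of −0.56, −0.93 (−1.19 to −0.67) and −0.64. Of 13 clusters with at least 20 UMIs Rpl14 was lower in 11, with the counting interval below 0 in 6. Rpl18 was at 1.81 and 1.42, 2.22 and 1.44, and 2.83 and 2.16 in these classes. It was lower in 13 of 15 clusters, with the interval below 0 in 7. Rpl28 and Rps19, the latter mutated in Diamond-Blackfan anaemia, are named after their values were seen as further members with log2 ratios below 0 over all cells. These were −0.093 (−0.19 to 0.00094) and −0.025 (−0.15 to 0.097), with intervals that reach past 0. Over all cells Rpl14 was at −0.29 (−0.42 to −0.17), Rpl18 at −0.17 (−0.27 to −0.072) and Rpl3l at −0.20 (−0.76 to 0.35). Rpl28 was at 2.40 and 1.80 in macrophage-like and 3.11 and 2.29 in DC-like cells, and Rps19 at 1.32 and 1.12, and 1.84 and 1.40. In neutrophil-like cells Rpl14 was at 0.132 and 0.146, below the minimum of 100 UMIs for a ratio. Rpl13, of the large subunit, was the member past 0.32 in both macrophage-like and DC-like cells. It was at 2.25 and 2.85 in neutrophil-like, 9.81 and 14.4 in monocyte-like, 12.9 and 16.6 in macrophage-like and 15.6 and 20.1 in DC-like cells. Of 15 clusters it was higher in 14, with the interval above 0 in 13. Rpl28 and Rpl18 overlap Ube2s and Sphk2 on the opposite strand, which had 2899 and 2014 UMIs over all barcodes, while Rpl14 and Rps9 overlapped no counted gene.

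**Figure D5:**
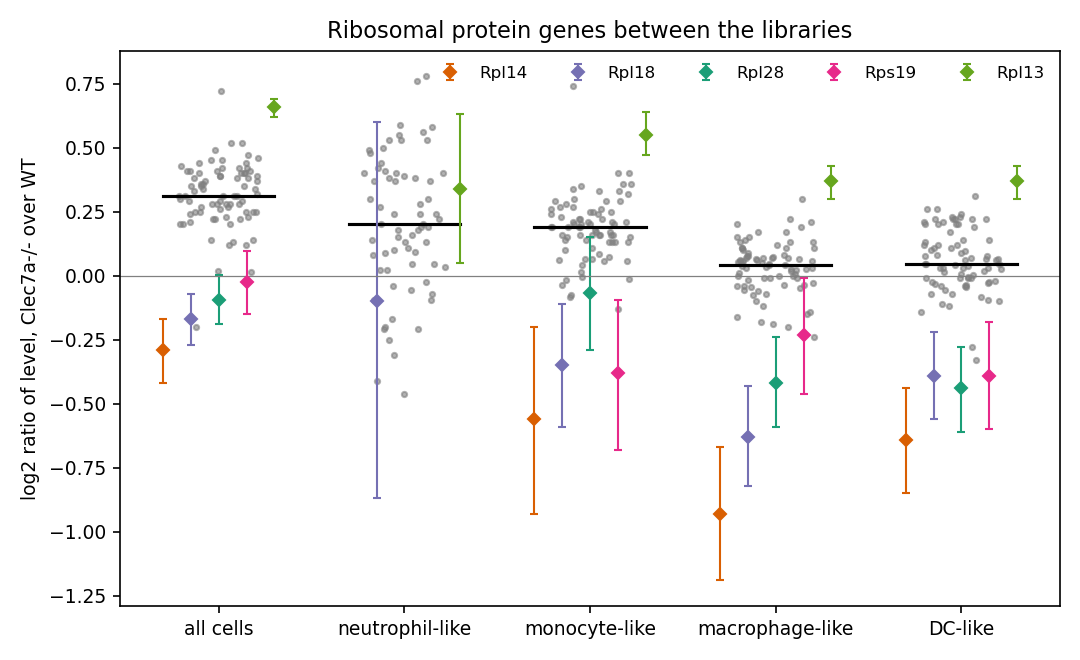
Log2 ratio of the level (UMIs per 10000) of each member in the Clec7a-/- over the WT library, for all cells and the 4 myeloid classes; the black line is the median of members, and diamonds with 95% counting intervals mark Rpl14, Rpl18, Rpl28, Rps19 and Rpl13, of which Rpl14, Rpl28 and Rps19 are not drawn for neutrophil-like cells. Medians were 0.31 in all cells and 0.041 and 0.046 in macrophage-like and DC-like cells, with Rpl14 at −0.93 and −0.64 there.

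Paralogs and copies took 18968 UMIs, or 1.28% of the pool, and some differed by class. Rps27l, a paralog of Rps27 that p53 induces, had 3.39% of the pair's UMIs in neutrophil-like, 7.44% in monocyte-like, 13.7% in macrophage-like and 23.1% in DC-like cells. Its level in DC-like cells was 4.94 in WT and 5.75 in Clec7a-/-, against 0.246 and 0.270 in neutrophil-like cells. Over all cells it was the member with the highest log2 ratio of Clec7a-/- to WT, 0.72 (0.63 to 0.80), whereas within classes it was 0.36 in monocyte-like, −0.19 in macrophage-like and 0.22 in DC-like cells. Rpl22l1, a paralog of Rpl22, had 30.7% to 45.0% of its pair, highest in macrophage-like cells, and Rpl36al 35.3% to 46.0% of its pair with Rpl36a, highest in monocyte-like cells. Rpl3l, known from striated muscle, rested on 126 UMIs in all and 25 in neutrophil-like cells. Rpl39l, known from testis as Rpl10l is, had 6 UMIs. Rps19bp1, which encodes a protein that binds Rps19, had 218 UMIs in WT and 192 in Clec7a-/-, or 0.52 (0.23 to 0.80) as a log2 ratio, and Rpl7l1 had 6.30% to 13.2% of its pair with Rpl7. Rps27rt, a retrocopy, had 1.60% of its pair, but shares 91.7% of its 25-base stretches with Rps27, so reads of the pair could be split by the counting. Over the last 300 bases, 8 members shared 90% or more of such stretches with other transcripts and 29 under 10%. Rps27 and Rpl35 were among the 8 and are uncertain for that reason. Rpl10a shared 88.0%, Rpl13 84.8%, Rpl18 83.0% and Rps4x 69.2%, so the same limit bears on them. Rps9 shared 31.5% and Rpl14 6.52%.

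Other genes of the translation machinery were also low in neutrophil-like cells, as were 61.4% of all genes. Among proteins of the ribosome with other symbols, Rack1, a small-subunit scaffold, was at 1.03 per 10000 UMIs in WT and 0.999 in Clec7a-/- neutrophil-like cells and between 8.27 and 12.0 in the other classes. Fau, whose product is processed to a small-subunit protein, was at 2.29 and 1.93 in neutrophil-like cells and 1.96 to 3.20 in the other classes, and like Rps9 was past 2-fold in neither direction. Of 16 translation factors and other TOP genes, 14 were over 2-fold lower. The elongation factor gene Eef1a1 was at 13.3 and 12.1 in neutrophil-like and 60.1 and 60.8 in DC-like cells, and the exceptions were the poly(A)-binding protein gene Pabpc1 at −0.44 and Tpt1 at −0.83 on the log2 scale, both of which lie above 0 after the TMM shift of 0.90, as do Fau (−0.17) and Ncl and Nop56 below. Of 12 assembly genes 10 were lower, Ncl (−0.37) and Nop56 (−0.67) excepted. Of 69 mitochondrial ribosomal protein genes 61 were lower and 1, Mrps15, was higher, at 1.02 and 1.77 in neutrophil-like cells and 0.139 to 0.316 in the other classes. Of 9 regulators of these genes, 5 were lower in neutrophil-like cells. These were Larp1 on 48 UMIs there, Rps6kb2 on 6, Myc on 4, Mtor on 3 and Mycl on 2. Rptor, a subunit of the mTOR complex, was higher, on 47 UMIs. Between libraries over all cells, 11 of 16 TOP genes, 7 of 12 assembly genes and 42 of 74 mitochondrial ribosomal protein genes were past 0.32 higher in Clec7a-/- and 0 lower, beside 28.1% and 13% of all genes. Within classes fewer TOP genes were past this limit. Of 16, 1 was higher and 1 lower in monocyte-like, 0 and 1 in macrophage-like and 1 and 1 in DC-like cells. Mitochondrial ribosomal protein genes had 7 of 21 higher and 0 lower in monocyte-like cells (all genes 13.4% and 11.9%). In macrophage-like cells they had 5 of 54 higher and 3 lower (9.34% and 11.8%). In DC-like cells they had 21 of 44 higher and 2 lower (13.8% and 11.6%). Of assembly genes, 2 of 8 were higher and 1 lower in monocyte-like cells. They had 1 of 10 and 1 in macrophage-like, and 3 of 9 and 0 in DC-like cells. Eef2, the translocation factor, went against most TOP genes. It was at 4.18 in WT and 3.33 in Clec7a-/- monocyte-like, 4.73 and 3.58 in macrophage-like, and 5.14 and 4.04 in DC-like cells.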

How the data were processed

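The deposited files held UMI counts per gene and barcode, which the authors had made without normalization. The submitters' processing notes name Cell Ranger 2.1.1 and mm10, and the protocol a SeekOne MM 3′ kit where another label names 10x. How reads were assigned to repeated copies or by strand is not given in the sources used here. Members and lists were chosen with earlier results of these data known. The filter kept barcodes with 200 to 4000 genes whose mitochondrial share was 5% or less. They were clustered with Seurat 5.3.0 (R 4.3.3) on 2000 variable genes and 20 components, members and their copies left out, at a resolution that gave 15 clusters, named from marker lists. Scrublet in scanpy 1.11.5 called 0 WT and 1 Clec7a-/- doublet, too few to have worked, so doublets were left in. Shares are member UMIs over summed UMIs. Exact binomial intervals came from scipy 1.17.1. Ratios of single genes used genes with at least 100 UMIs and a pseudocount of 0.5 UMIs. Overlaps and shared stretches were read from the GENCODE annotation and transcripts of GRCm38. TMM factors came from edgeR 4.0.16. Named members were the 5 with most UMIs, the 5 widest and 3 narrowest in pool share over classes, the 3 highest and 3 lowest in pool share between libraries, paralogs and copies, and those at 0. Alternatives covered filters, class assignment, clustering, averaging, denominators and scaling. The code was tested on simulated data.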

Additional observations from a re-analysis of the deposited data

Results flagged for a closer look

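The log2 ratio of the ribosomal protein share, Clec7a-/- over WT, was 0.14 in cluster 1 and −0.58 in cluster 3, opposite signs within the neutrophil-like class, and the difference was not tested. Within cluster 3 it was −0.93 in cells under 1000 UMIs and 0.49 from 2000 to under 4000 UMIs, and this difference was not tested either. In macrophage-like cells the log2 ratio of the share in cells of 4000 or more UMIs over that in cells under 2000 UMIs was 0.18 in WT and −0.14 in Clec7a-/- cells, again without a test of the difference. In DC-like cells the ratio of Clec7a-/- to WT was −0.23 under 1000 UMIs and 0.20 from 1000 to under 2000 UMIs, and this difference too was not tested.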

How the results depend on the processing

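The 7 ratios of the share were recomputed under 11 alternatives, and under 3 more chosen after seeing the data (no filter on cells, removal of the top 5% of cells by Scrublet score, cluster 3 left out). Values that moved beyond the counting interval are given here as log2 ratios. For Clec7a-/- over WT in all cells, 0.33, the values were 0.32 with a mitochondrial limit of 10%, 0.31 with 500 to 6000 genes, 0.31 as the mean over cells, 0.34 over nuclear UMIs, 0.35 with at least 1000 UMIs, 0.27 with no filter and 0.37 without cluster 3. In neutrophil-like cells, 0.18, they were 0.14 (10%), −0.037 (mean over cells), 0.53 (classes from marker UMIs), 0.27 (1000 UMIs), 0.22 (finer clustering), 0.12 (no filter) and 0.14 (without cluster 3). In monocyte-like cells, 0.19, they were 0.16 (10%), 0.28 (marker UMIs) and 0.17 (libraries integrated by rPCA). In macrophage-like cells, 0.058, they were 0.088 (10%), 0.040 (500 to 6000 genes), 0.088 (mean over cells), 0.084 (rPCA), 0.071 (no filter) and 0.038 (Scrublet scores). In DC-like cells, 0.072, they were 0.037 (10%), 0.029 (marker UMIs), 0.030 (no filter) and 0.061 (Scrublet scores). For neutrophil-like over the other 3 classes, −2.27, they were −2.29 (500 to 6000 genes), −2.10 (mean over cells), −0.99 (marker UMIs), −2.45 (rPCA), −2.30 (nuclear UMIs, 1000 UMIs, and without the top 3 members), −2.42 (finer clustering) and −2.49 (without cluster 3). For depth, 0.64, they were 0.53 (10%, 500 to 6000 genes and 1000 UMIs), 0.71 (mean over cells), 0.69 (marker UMIs), 0.52 (rPCA), 0.66 (nuclear UMIs and Scrublet scores), 0.65 (without the top 3), 0.58 (finer clustering), 0.50 (no filter) and 0.24 (without cluster 3). With TMM scaling the 39 members past 0.32 between libraries became 8. The sign changed only for neutrophil-like cells as a mean over cells, and the causes were not tested. No paired analysis was possible because each genotype had 1 library, and for the same reason no replicate could be left out. Depth limits the cells of rare classes and the neutrophil-like levels of low members, since 17 of 86 members were under 100 UMIs there.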
